A study of Ovis aries with 8 samples.

Results

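Direct targets of the tumour suppressor p53, genes that it switches on, were followed across sheep embryonic stem cells in a naive-like and a primed state of pluripotency. They are MDM2, CCNG1, PHLDA3, CDKN1A, BAX, PMAIP1, BBC3, TP53I3 and AEN, were taken by gene symbol, and make up 9 of the 28475 genes measured. All 9 passed the filter on low values that left 14779 genes to test. RNA sequencing of polyadenylated RNA was done on 8 libraries of cells that had been established from the inner cell mass of sheep blastocysts, in 4 groups of 2. Naive-like cells on mouse embryonic fibroblasts (MEFs, a feeder layer that supports the culture) and naive-like cells without feeders were at passage 12, and their labels describe them as converted from primed cells. Their medium held 20 ng/mL Activin A, 20 ng/mL LIF, 1 µM of the MEK inhibitor PD0325901, 2 µM of the tankyrase inhibitor XAV-939, 2 µM of the protein kinase C inhibitor Go6983, 1.2 µM of the SRC inhibitor CGP77675 and 50 µg/mL ascorbic acid. Primed cells of line B and of line A were labelled wild type, grew without feeders and were at passage 10. The primed medium contained endo-IWR-1, another tankyrase inhibitor, at 3 µM, bFGF and Activin A at 20 ng/mL each, and BSA at 1%. Activin A and inhibition of tankyrase, which damps WNT signalling, were thus shared by all groups, while the other factors and the passage changed together with the state. Which line was converted is not stated in the labels.

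p53 is a transcription factor that is made continuously and held at a low protein level by MDM2, a ubiquitin ligase that marks it for degradation. Damage to DNA, stress on the ribosome or stalled replication frees p53, which then binds response elements near genes for cell cycle arrest, DNA repair, cell death and metabolism, MDM2 among them. Pluripotent cells are known, mostly from mouse and human, for a short pause in the first gap phase of the cell cycle and for a readiness to die after damage. These roles were worked out mainly in human and mouse cells, and protein, its modification and its binding to DNA were not measured here.

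Levels are given in TPM, a transcript abundance corrected for transcript length in which every library sums to the same total, so that a value is a share of the measured RNA. Log2 changes were computed from log2(TPM + 1), a scale that shrinks changes of low genes, and "rose" and "fell" are used for a Benjamini-Hochberg adjusted p under 0.05 in limma. Libraries were alike in the number of genes at or above 1 TPM (13294 to 13664). Summed levels of marker lists differed between the states. The sum of 9 pluripotency markers was 3233 to 3562 TPM in naive-like libraries and 2445 to 2522 TPM in primed libraries, although of 8 tested only 3 rose, 1 fell and 4 did not pass. Sums in naive-like against primed libraries were 40.2 to 66.0 against 132 to 181 TPM for 10 neuroectoderm markers, 109 to 127 against 421 to 521 TPM for 10 hypoblast markers and 63.3 to 71.3 against 499 to 674 TPM for 9 trophectoderm markers. Of these lists 8, 3 and 4 markers were tested, of which 7, 3 and 4 fell, so the hypoblast and trophectoderm sums rest on few genes. These marker counts stand beside 28.6% of all genes tested that rose and 22.1% that fell in naive-like against primed cells. SOX17 was at 0 in all naive-like and line B libraries, AFP in all libraries, TTR in those on MEFs and of line A, and the pluripotency marker ZFP42 in line B. Ribosomal RNA genes took 1.43% to 3.48% of TPM in naive-like libraries and 4.42% to 6.26% in primed libraries. Their part and that of the marker lists in the results below was not tested, apart from a rescaling without ribosomal RNA genes that left the count of called genes among the 9 targets the same in each comparison. In bulk RNA, fewer cells of a type cannot be told apart from less RNA per cell. Nothing in the labels says whether the paired libraries were separate cultures, so p-values measure the spread between these libraries, which may be technical.

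Most of the 9 targets were higher in naive-like cells. Of the 9, 7 rose in the 4 naive-like against the 4 primed libraries, 1 fell (BBC3) and 1 did not pass (CDKN1A). Over all genes tested 50.7% passed, 28.6% higher and 22.1% lower, and the count has to be read against these shares. The 9 targets and the lists below were chosen with earlier results of these data known. An excess over the shares is therefore a description and no independent test. The median log2 change was 0.70 over the 9 targets and 0.05 over all genes. The naive-like and primed libraries did not overlap for 7 targets that were higher and 1 that was lower, beside 26.8% and 20.9% of all genes. A rise of at least 2-fold on the log2(TPM + 1) scale was reached by 3 targets (PHLDA3, PMAIP1 and TP53I3), beside 4.78% of all genes. Summed over the 9 targets, levels were 788 and 764 TPM on MEFs and 979 and 957 TPM without feeders, against 520 and 524 TPM in line B and 497 and 482 TPM in line A, with CCNG1 the largest part in every library.

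**Figure D1:**
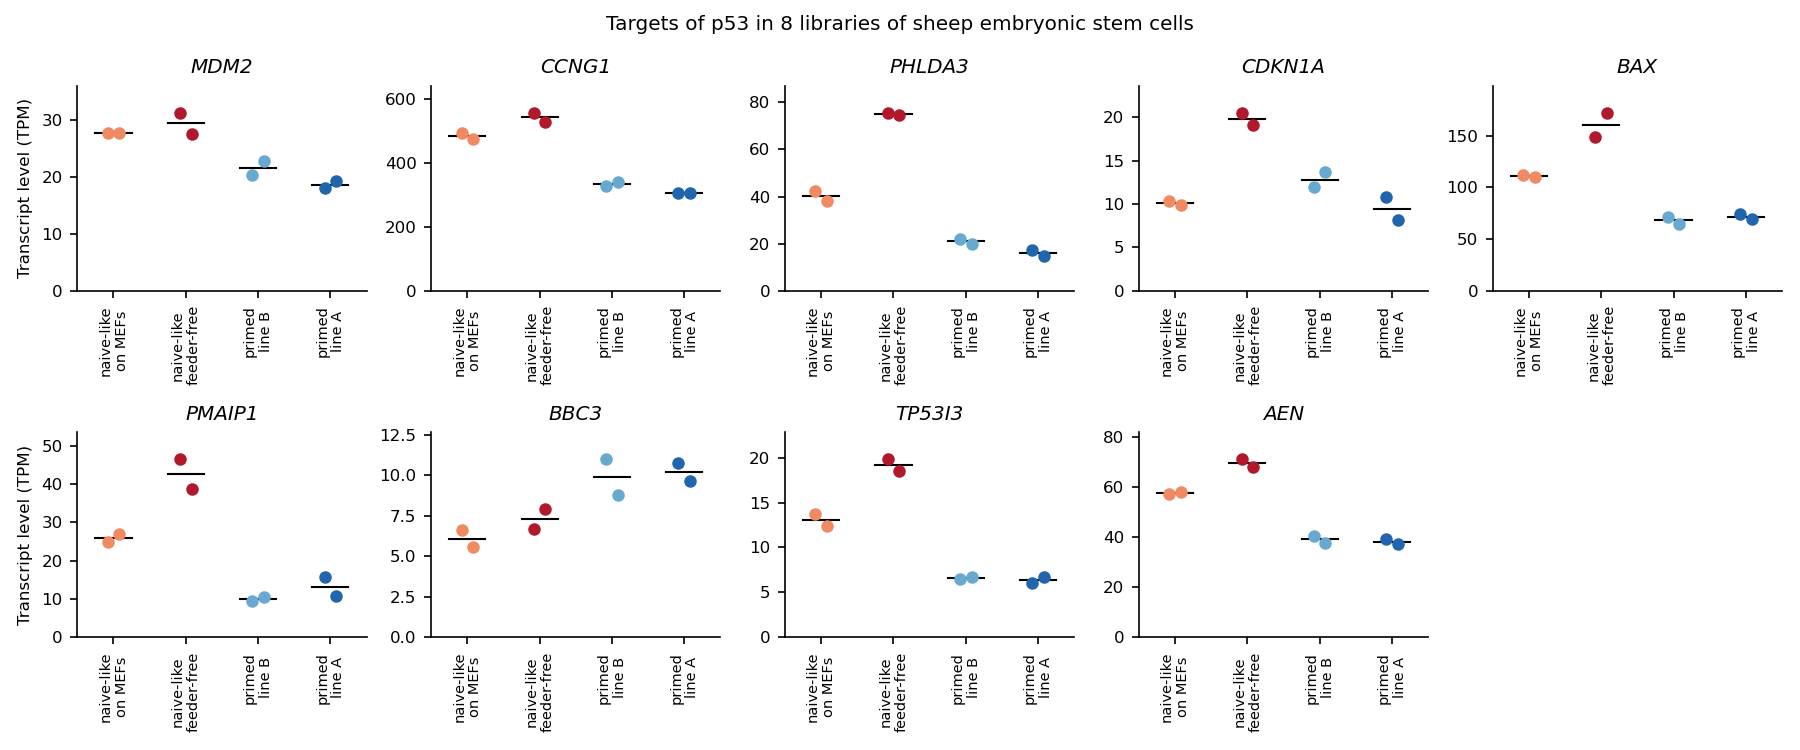
Transcript level in TPM of the 9 targets in each of the 8 libraries, with a point per library, a bar at the mean of the 2 libraries of a group and a vertical axis from 0 for each gene. Naive-like groups lie above both primed lines for 7 targets, BBC3 lies below them, and CDKN1A is highest in the feeder-free naive-like group (20.5 and 19.2 TPM).

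The feedback genes rose. MDM2, which closes the loop by degrading p53, had 27.7 and 27.8 TPM on MEFs and 31.3 and 27.6 TPM without feeders, against 20.4 and 22.8 TPM in line B and 18.0 and 19.3 TPM in line A. The naive-like libraries stood above the primed ones without overlap, while the 2 naive-like groups overlapped. The mean was 28.6 ± 1.79 TPM in naive-like and 20.1 ± 2.05 TPM in primed libraries (SD, n = 4 each), a log2 change of 0.49 ± 0.0823 (SE, adjusted p = 0.00099). CCNG1, cyclin G1, which brings a phosphatase to MDM2, was the most abundant of the 9. It had 493 and 475 TPM on MEFs and 558 and 530 TPM without feeders, against 327 and 340 TPM in line B and 305 and 306 TPM in line A. The 4 groups kept apart from each other in this gene, in the order without feeders, on MEFs, line B, line A. The log2 change between the states was 0.68 ± 0.0619 (SE, adjusted p = 2.37e-05), with means of 514 ± 37.2 TPM in naive-like and 320 ± 16.9 TPM in primed libraries (SD, n = 4 each).

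PHLDA3, which competes with the kinase AKT for membrane lipids and so damps survival signalling, showed the largest log2 rise of the 9. It had 42.3 and 38.0 TPM on MEFs and 75.6 and 74.7 TPM without feeders, against 22.2 and 19.9 TPM in line B and 17.4 and 14.8 TPM in line A. No 2 groups overlapped, and the feeder-free libraries were far above all others. Its mean was 57.7 ± 20.3 TPM in naive-like and 18.6 ± 3.15 TPM in primed libraries (SD, n = 4 each), a log2 change of 1.53 ± 0.235 (SE, adjusted p = 0.000585).

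CDKN1A encodes p21, the inhibitor of cyclin-dependent kinases through which p53 arrests the cell cycle, and its level separated the feeder conditions. Its level was 10.4 and 9.89 TPM on MEFs and 20.5 and 19.2 TPM without feeders, against 12.0 and 13.6 TPM in line B and 10.8 and 8.11 TPM in line A. Libraries on MEFs lay within the range of the primed libraries, and those without feeders lay above all 6 others. Between the states it did not pass (log2 change 0.35 ± 0.249 (SE), adjusted p = 0.270). In the fit of 4 groups, whose spread leaves out the gap between the feeder conditions, the same contrast passed (adjusted p = 0.0132). The feeder-free group alone rose against primed cells (log2 change 0.80 ± 0.117 (SE), adjusted p = 0.000647), the group on MEFs did not pass (log2 change −0.10 ± 0.117 (SE), adjusted p = 0.488), and the difference between the feeder conditions itself passed, as given below.

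Genes of the mitochondrial death pathway split. BAX, which opens pores in the outer mitochondrial membrane, had 112 and 109.9 TPM on MEFs and 149 and 172 TPM without feeders, against 71.6 and 64.4 TPM in line B and 74.4 and 69.1 TPM in line A. All naive-like libraries exceeded all primed ones, and the 2 primed lines overlapped. Means were 136 ± 30.3 TPM in naive-like and 69.9 ± 4.23 TPM in primed libraries (SD, n = 4 each), 1.94 times as high (log2 change 0.93 ± 0.138 (SE), adjusted p = 0.000494). BAX overlaps another gene in the RefSeq annotation of sheep, TULP2, which had 2.73 to 3.56 TPM in naive-like and 3.03 to 6.96 TPM in primed libraries, and the labels do not say whether counting used the strand. The other 8 targets overlap no annotated gene there.

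PMAIP1 (NOXA), a BH3-only protein that blocks the survival factor MCL1, had 24.9 and 27.0 TPM on MEFs and 46.5 and 38.6 TPM without feeders, against 9.52 and 10.4 TPM in line B and 15.6 and 10.8 TPM in line A. The lowest naive-like library was well above the highest primed one, which was a line A library apart from its partner. PMAIP1 rose by a log2 change of 1.46 ± 0.211 (SE, adjusted p = 0.000411), with means of 34.2 ± 10.2 TPM in naive-like and 11.6 ± 2.74 TPM in primed libraries (SD, n = 4 each). BBC3 (PUMA), a BH3-only protein that binds all the survival members of the BCL2 family, went the other way and was among the lowest of the 9. It had 6.59 and 5.58 TPM on MEFs and 6.66 and 7.93 TPM without feeders, against 11.0 and 8.79 TPM in line B and 10.7 and 9.67 TPM in line A. Each naive-like library was below each primed one, and the 2 primed lines overlapped. BBC3 fell by a log2 change of −0.53 ± 0.112 (SE, adjusted p = 0.00371), with means of 6.69 ± 0.964 TPM in naive-like and 10.05 ± 1.01 TPM in primed libraries (SD, n = 4 each). Within a library, PMAIP1 was 3.78 and 4.84 times BBC3 on MEFs and 6.98 and 4.86 times without feeders, against 0.866 and 1.19 times in line B and 1.46 and 1.12 times in line A, a pair chosen after the values were seen.

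**Figure D2:**
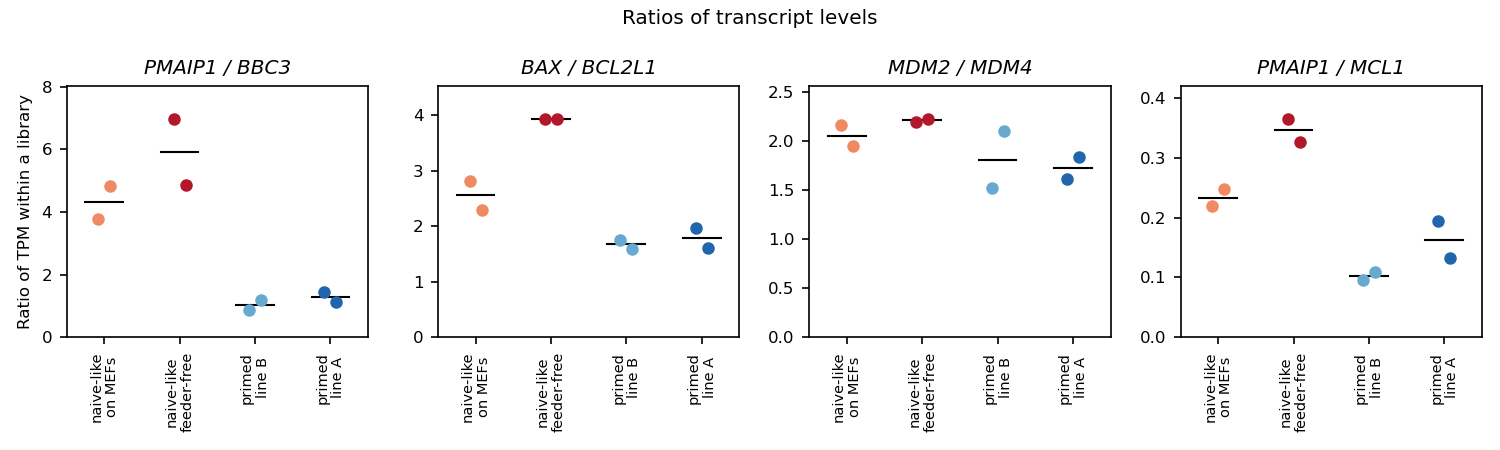
Ratio of 2 transcript levels within each library (PMAIP1 to BBC3, BAX to BCL2L1, MDM2 to MDM4 and PMAIP1 to MCL1, pairs chosen after the values were seen), with a point per library, a bar at the mean of the 2 libraries of a group and a vertical axis from 0. The ratio of PMAIP1 to BBC3 averaged 5.11 ± 1.34 in naive-like and 1.16 ± 0.242 in primed libraries (SD, n = 4 each).

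TP53I3 (PIG3), an enzyme resembling quinone oxidoreductases that has been tied to reactive oxygen, had 13.7 and 12.4 TPM on MEFs and 19.8 and 18.5 TPM without feeders, against 6.50 and 6.69 TPM in line B and 6.07 and 6.72 TPM in line A. The primed libraries lay close together and each naive-like group lay apart above them. The rise was 2.48-fold by means, 16.1 ± 3.59 TPM in naive-like and 6.50 ± 0.302 TPM in primed libraries (SD, n = 4 each), or a log2 change of 1.17 ± 0.141 (SE, adjusted p = 0.000137). AEN, an exonuclease that helps break down DNA in dying cells, had 57.1 and 57.9 TPM on MEFs and 71.0 and 68.0 TPM without feeders, against 40.2 and 37.8 TPM in line B and 39.1 and 37.0 TPM in line A. It showed the same order of groups as TP53I3, with the 2 primed lines overlapping. Its log2 change was 0.70 ± 0.0796 (SE, adjusted p = 9.50e-05), with means of 63.5 ± 7.07 TPM in naive-like and 38.5 ± 1.40 TPM in primed libraries (SD, n = 4 each).

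Each naive-like group was also set against primed cells alone, with the same 4 primed libraries in both comparisons, which are therefore not independent. Among naive-like cells on MEFs 7 targets rose and 1 fell, beside 51.8% of all genes that passed, 29.7% higher and 22.1% lower. Their median log2 change was 0.60 over the targets and 0.06 over all genes, and 2 targets rose at least 2-fold, beside 5.29% of genes. Among feeder-free naive-like cells 8 targets rose and 1 fell, beside 56.4% of all genes, 30.8% higher and 25.6% lower. There the median was 0.84 over the targets and 0.04 over all genes, and 4 targets rose at least 2-fold (PHLDA3, PMAIP1, TP53I3 and BAX), beside 5% of genes. PHLDA3 changed by a log2 of 1.08 ± 0.0849 on MEFs (SE, adjusted p = 2.53e-05) and 1.97 ± 0.0849 without feeders (SE, adjusted p = 8.84e-07). PMAIP1 changed by 1.12 ± 0.141 on MEFs (SE, adjusted p = 0.000347) and 1.81 ± 0.141 without feeders (SE, adjusted p = 2.13e-05). MDM2 was nearly alike in both, 0.45 ± 0.0796 on MEFs (SE, adjusted p = 0.00202) and 0.53 ± 0.0796 without feeders (SE, adjusted p = 0.000755). BBC3 changed by −0.64 ± 0.124 on MEFs (SE, adjusted p = 0.00326) and −0.41 ± 0.124 without feeders (SE, adjusted p = 0.0220). Its feeder-free fall no longer passed without feeder-free replicate 1 (adjusted p = 0.144), line A replicate 1 (adjusted p = 0.0586) or line B replicate 1 (adjusted p = 0.0543).

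**Figure D3:**
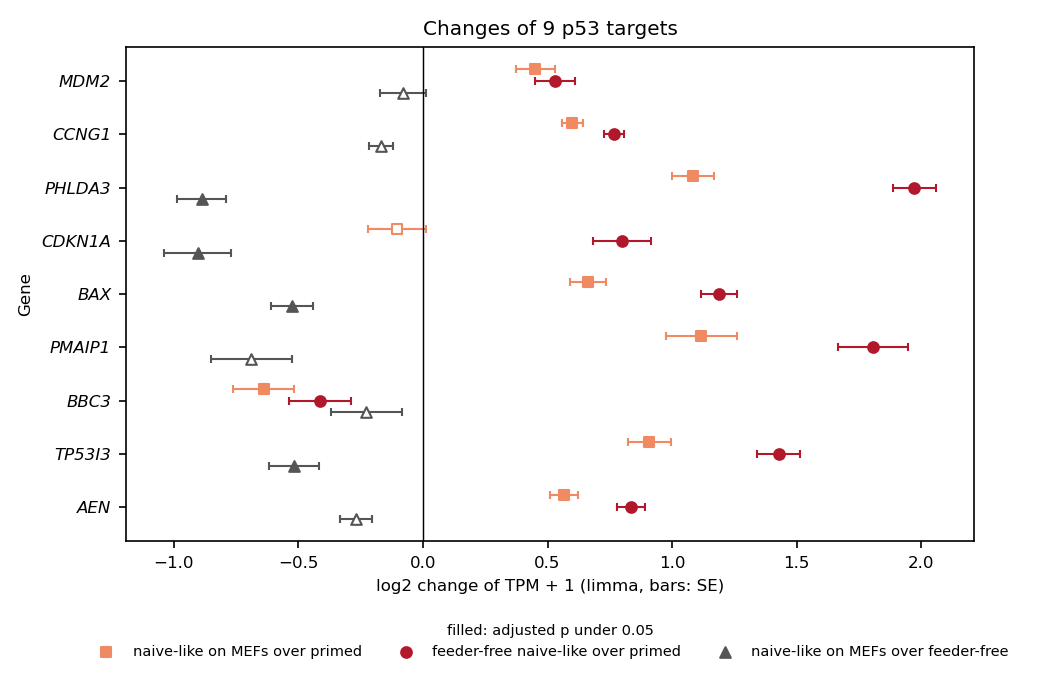
Log2 change of TPM + 1 for the 9 targets with its standard error from limma, for naive-like cells on MEFs over primed cells (squares), feeder-free naive-like over primed cells (circles) and naive-like cells on MEFs over feeder-free ones (triangles), filled where the adjusted p was under 0.05. The changes on MEFs lie to the left of the feeder-free ones for all 9 targets, by the least for MDM2 (0.45 on MEFs against 0.53 without feeders), and PHLDA3 has 1.08 on MEFs against 1.97 without feeders.

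The feeder condition separated several targets within the naive-like state. All 9 had a log2 change below 0 in cells on MEFs against feeder-free cells, and 4 fell, beside 5.16% of all genes that passed, 2.89% higher and 2.27% lower. The median was −0.52 over the 9 targets and 0.02 over all genes. Libraries on MEFs were below those without feeders, with no overlap, for 8 targets, beside 23.9% of all genes, MDM2 being the one that overlapped. CDKN1A fell by a log2 change of −0.90 ± 0.135 on MEFs (SE, adjusted p = 0.00961), to 0.511 times its feeder-free mean. PHLDA3 fell by −0.89 ± 0.0980 (SE, adjusted p = 0.00267), BAX by −0.53 ± 0.0853 (SE, adjusted p = 0.0141) and TP53I3 by −0.52 ± 0.10 (SE, adjusted p = 0.0278). PMAIP1 (−0.69 ± 0.163 (SE), adjusted p = 0.0530) and AEN (−0.27 ± 0.0642 (SE), adjusted p = 0.0538) lay just past the threshold, and CCNG1 (−0.17 ± 0.0482 (SE), adjusted p = 0.0950), BBC3 (−0.23 ± 0.143 (SE), adjusted p = 0.409) and MDM2 (−0.08 ± 0.0919 (SE), adjusted p = 0.677) did not pass.

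These feeder calls rest on 2 libraries a side. Without feeder-free replicate 2, 319 of all genes and 2 targets passed, without MEF replicate 1 163 genes and 1 target, and without MEF replicate 2 160 genes and 1 target, in fits that take the spread of the lone library from the other groups. PHLDA3 passed in each of these fits (highest adjusted p = 0.0349). CDKN1A no longer passed without MEF replicate 1 (adjusted p = 0.0688) or 2 (adjusted p = 0.0836), BAX without feeder-free replicate 2 (adjusted p = 0.0657) or MEF replicate 1 (adjusted p = 0.0915) or 2 (adjusted p = 0.106), and TP53I3 without any of the 4 (adjusted p = 0.0819 without feeder-free replicate 1, 0.0776 without 2, 0.108 without MEF replicate 1 and 0.192 without 2).

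Some fibroblast markers differed between the feeder conditions. The summed level of 16 fibroblast markers was 291 TPM in each library on MEFs and 107 to 115 TPM in feeder-free naive-like libraries, against 141 to 186 TPM in primed libraries. Of the 16 markers 10 reached 1 TPM on MEFs and 5 to 6 in feeder-free naive-like libraries. In primed libraries, which also grew without feeders, 9 to 10 did. Of 11 tested markers 5 rose on MEFs, 2 fell and 4 did not pass, beside 2.89% higher and 2.27% lower over all genes. COL1A1, COL1A2, COL3A1, TWIST1 and PRRX1 rose, with COL1A2 at a mean of 38.0 TPM on MEFs and 0.133 TPM without feeders, while COL5A1 had 28.8 TPM on MEFs and 38.7 TPM without feeders and LUM 12.1 TPM on MEFs and 18.8 TPM without feeders. FAP and POSTN were at 0 in both feeder-free naive-like libraries, and none was at 0 in both libraries on MEFs. FAP was also at 0 in both libraries of each primed line, and S100A4 in those of line A. These markers are named after their values were seen. The part of MEF RNA in the differences between the feeder conditions was not tested.

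Between the primed lines, 0 of the 9 targets passed in limma in line B against line A, with 3 at an unadjusted p under 0.05, beside 7.36% of all genes that passed, 4.18% higher and 3.17% lower. The split of those genes depended on the scaling, with 618 higher and 469 lower as deposited, 406 higher and 620 lower after median-ratio scaling and 477 higher and 615 lower after quantile normalization. The libraries of the lines did not overlap for 5 targets, 4 higher in line B (MDM2, CCNG1, PHLDA3, CDKN1A) and 1 lower (PMAIP1), beside 54.8% of all genes. Among them CDKN1A had the largest log2 difference, 0.41 ± 0.135 (SE, adjusted p = 0.113). PHLDA3 differed by 0.36 ± 0.0980 (SE, adjusted p = 0.0658), and passed with the replicate number as a block (adjusted p = 0.0348).

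The wider set of p53 targets held both rises and falls. Of 70 other known targets 65 were in the table and 61 were tested, and in naive-like against primed cells 24 rose (39.3%), 14 fell (23%) and 23 did not pass, beside 28.6% higher and 22.1% lower over all genes, with a median log2 change of 0.20 beside 0.05. After rescaling without ribosomal RNA genes 22 were higher and 16 lower. These lists, too, were chosen with earlier results of these data known. Among 20 genes of arrest and DNA repair 6 rose and 7 fell, with a median of 0.03. PLK2, a kinase of the polo family, averaged 19.9 ± 1.62 TPM in naive-like and 9.40 ± 0.432 TPM in primed libraries (SD, n = 4 each; log2 change 1.00 ± 0.0769 (SE), adjusted p = 8.54e-06), and SFN, the 14-3-3 protein that holds cells before mitosis, 11.3 ± 2.28 and 3.43 ± 0.451 TPM (log2 change 1.46 ± 0.144 (SE), adjusted p = 4.01e-05). ANKRA2, which tethers histone deacetylases (log2 change −0.64 ± 0.0852 (SE), adjusted p = 0.000263), and POLH, a polymerase that copies past DNA lesions (log2 change −0.52 ± 0.0712 (SE), adjusted p = 0.000306), fell.

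Of 14 tested death genes outside the 9, 7 rose, 1 fell and 6 did not pass, beside 28.6% higher and 22.1% lower over all genes, and the median log2 change was 0.40. Whether the list differs from other genes was not tested. FAS, a death receptor, had 3.62 and 2.93 TPM on MEFs and 7.33 and 6.30 TPM without feeders, against 0.897 and 0.895 TPM in line B and 1.30 and 0.366 TPM in line A. Every naive-like library was above every primed one, and the log2 change was 1.65 ± 0.259 (SE, adjusted p = 0.00067). PIDD1, the scaffold of the PIDDosome that activates caspase-2, averaged 11.0 ± 1.18 TPM in naive-like and 5.21 ± 0.637 TPM in primed libraries (SD, n = 4 each; adjusted p = 9.35e-05). STEAP3, a metalloreductase (log2 change 1.02 ± 0.113 (SE), adjusted p = 8.51e-05), and EI24, a protein of the endoplasmic reticulum (log2 change 0.53 ± 0.0902 (SE), adjusted p = 0.00112), rose too.

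Targets in metabolism, signalling and secretion held the largest falls. Rises numbered 11 (40.7%) and falls 6 (22.2%) among 27 tested genes, beside 28.6% higher and 22.1% lower over all genes. The other 10 did not pass, and the median was 0.23 beside 0.05 over all genes. KITLG, the ligand of the receptor KIT, had 2.40 and 0.962 TPM on MEFs and 0.200 and 0.804 TPM without feeders, against 15.8 and 19.9 TPM in line B and 51.7 and 36.5 TPM in line A. It fell with the state by −3.89 ± 0.402 (SE, adjusted p = 5.35e-05), and also differed between the lines (log2 change −1.25 ± 0.304 (SE), adjusted p = 0.0485 in line B against line A). TRIM38, a ubiquitin ligase of innate immune signalling (log2 change −2.51 ± 0.192 (SE), adjusted p = 8.29e-06), also fell, while the mitochondrial protein FAM210B rose (log2 change 0.74 ± 0.0660 (SE), adjusted p = 2.10e-05).

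**Figure D4:**
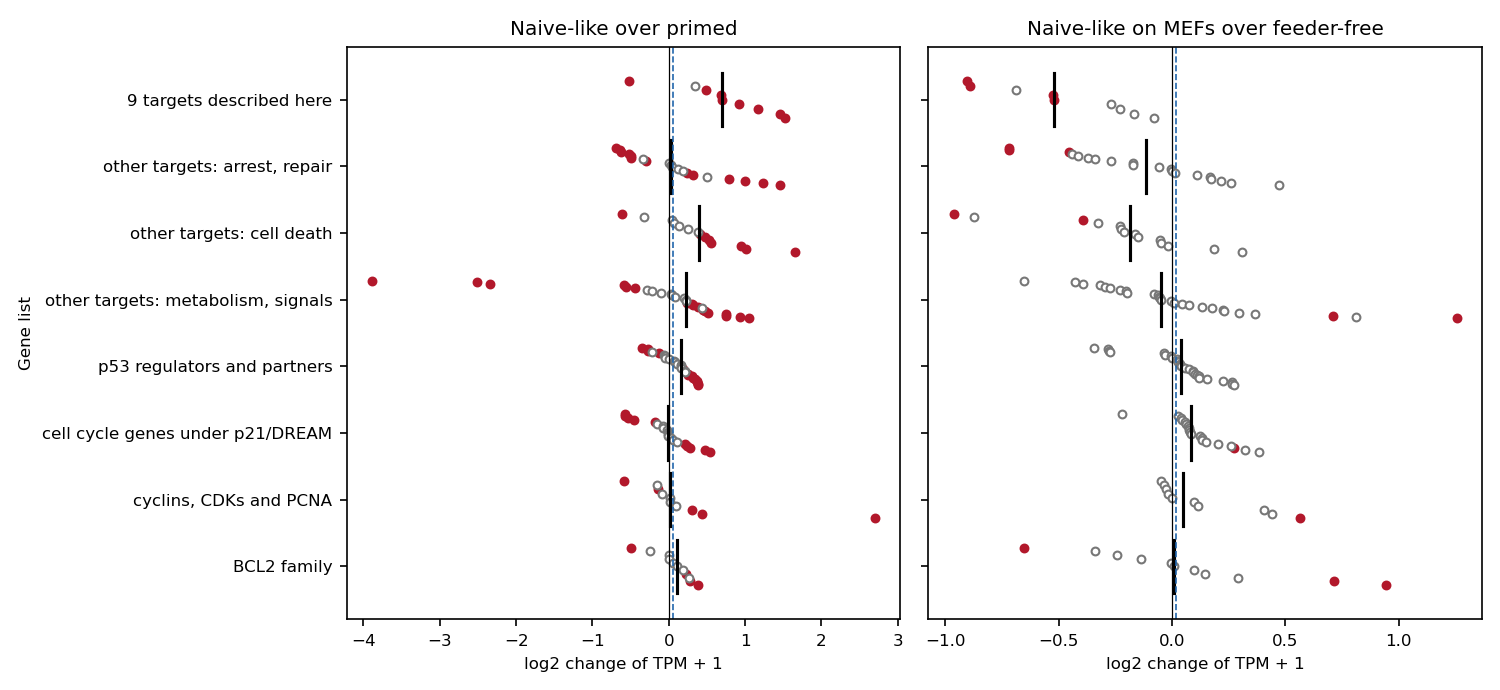
Log2 change of TPM + 1 for each tested gene of 8 lists, in naive-like over primed cells on the left and naive-like cells on MEFs over feeder-free ones on the right, with filled points for an adjusted p under 0.05, a black bar at the median of the list and a dashed line at the median of all genes. The 9 targets have medians of 0.70 on the left and −0.52 on the right. On the left and right, medians are 0.16 and 0.04 for the regulators and −0.02 and 0.08 for the cell cycle genes.

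On MEFs against feeder-free cells 5 of the 61 other targets fell (8.2%) and 2 rose (3.28%), beside 2.27% lower and 2.89% higher over all genes. These 7 are named after their values were seen. The count of 7 became 3 without MEF replicate 1 or 2, 4 without feeder-free replicate 1 and 12 (10 lower) after median-ratio scaling. XPC, which recognizes lesions in nucleotide excision repair, had 49.7 and 51.0 TPM on MEFs and 82.0 and 84.8 TPM without feeders (log2 change −0.72 ± 0.0805 (SE), adjusted p = 0.00283). PERP, a membrane protein tied to cell death and adhesion, had 61.4 and 61.6 TPM on MEFs and 128 and 114 TPM without feeders (log2 change −0.96 ± 0.0674 (SE), adjusted p = 0.000234). Primed libraries held 67.7 to 88.7 TPM of PERP, above both libraries on MEFs and below both feeder-free ones. RPS27L, a relative of a ribosomal protein (adjusted p = 0.00885), the antiproliferative gene BTG2 (adjusted p = 0.0288) and TP53INP1, a partner of p53 in stress (adjusted p = 0.0274), also fell on MEFs. THBS1, the matrix protein thrombospondin, rose (58.0 and 59.0 TPM on MEFs against 24.1 and 23.6 TPM without feeders, adjusted p = 0.00018), as did the cytokine gene CSF1 at a low level (1.12 and 1.07 TPM on MEFs against 0.382 and 0.184 TPM without feeders, adjusted p = 0.0492). Between the primed lines 4 rose in line B and 1 fell, a count of 5 that became 1 when either line B replicate 2 or line A replicate 1 was left out, 2 without line A replicate 2, 3 without line B replicate 1 or either MEF library, and 1 after quantile normalization or with the groups compared alone. Over all genes tested 4.18% rose in line B and 3.17% fell. Among the 5 targets FDXR, a mitochondrial reductase named after its values were seen, had 20.2 and 18.1 TPM in line B and 11.6 and 12.1 TPM in line A (log2 change 0.65 ± 0.0914 (SE), adjusted p = 0.00578).

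Regulators of p53 had small changes. Of 27 tested, 10 rose (37%) and 4 fell (14.8%) between the states, beside 28.6% higher and 22.1% lower over all genes. The median log2 change was 0.16 beside 0.05. USP7, which removes ubiquitin from p53 and MDM2, averaged 179 ± 4.27 TPM in naive-like and 143 ± 8.05 TPM in primed libraries (SD, n = 4 each; log2 change 0.32 ± 0.0505 (SE), adjusted p = 0.000693). The acetyltransferase EP300 (log2 change 0.35 ± 0.0690 (SE), adjusted p = 0.0026) and the kinase HIPK2 (log2 change 0.38 ± 0.0822 (SE), adjusted p = 0.00429), which both modify p53, rose, and AURKA, a mitotic kinase that phosphorylates it, fell (log2 change −0.35 ± 0.0610 (SE), adjusted p = 0.00123). MDM4, the relative of MDM2 that silences p53 without degrading it (named after its value was seen), did not pass (log2 change 0.21 ± 0.0919 (SE), adjusted p = 0.0833). On MEFs against feeder-free cells 0 of the 27 passed in limma, with 5 at an unadjusted p under 0.05, beside 5.16% of all genes that passed. Between the lines 1 of the 27 passed, beside 7.36% of all genes. It was PPP1R13L, an inhibitor of p53 named after its value was seen (log2 change −0.70 ± 0.0958 (SE), adjusted p = 0.00497 in line B against line A).

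Genes downstream of p21 showed no common direction between the states. Among 20 cell cycle genes that p53 lowers through p21 and the DREAM repressor complex 5 rose and 5 fell between the states (25% each). Over all genes 28.6% were higher and 22.1% lower, near these shares. The median was −0.02 beside 0.05 over all genes. MYBL2, a transcription factor of S phase, averaged 230 ± 7.10 TPM in naive-like and 159 ± 8.50 TPM in primed libraries (SD, n = 4 each; adjusted p = 2.86e-05), and E2F1, which drives entry into S phase, rose too (log2 change 0.47 ± 0.0696 (SE), adjusted p = 0.000458). CKS1B, a subunit of the cyclin-dependent kinases, averaged 201 ± 6.65 TPM in naive-like and 300 ± 23.2 TPM in primed libraries (SD, n = 4 each; adjusted p = 5.76e-05), and the mitotic cyclin CCNB2 fell as well (log2 change −0.46 ± 0.0710 (SE), adjusted p = 0.000617). On MEFs, where CDKN1A was lower than without feeders, 1 of the 20 passed, the checkpoint kinase BUB1B (log2 change 0.27 ± 0.0578 (SE), adjusted p = 0.0382), named after its value was seen. Over all genes 5.16% passed there. Of the 20, 19 had a log2 change above 0 on MEFs, with a median of 0.08 beside 0.02 over all genes. Libraries on MEFs lay above feeder-free ones, with no overlap, for 12 and below for 1, beside 28.7% and 23.9% of all genes. Whether the list differs from other genes was not tested. Of 10 cyclins, kinases and other proteins that p21 binds, 3 rose and 2 fell between the states, beside 28.6% and 22.1% of all genes. CDK6, a kinase of the first gap phase, had 11.6 and 10.4 TPM on MEFs and 12.3 and 10.5 TPM without feeders, against 1.10 and 0.679 TPM in line B and 0.816 and 0.889 TPM in line A (log2 change 2.71 ± 0.104 (SE), adjusted p = 1.40e-07). The replication clamp PCNA averaged 612 ± 7.54 TPM in naive-like and 453 ± 21.5 TPM in primed libraries (SD, n = 4 each; adjusted p = 4.62e-05), CDK4 rose (adjusted p = 0.0125), and the S phase cyclin CCNE2 fell (log2 change −0.59 ± 0.126 (SE), adjusted p = 0.00393).

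Of 11 tested BCL2 family partners of BAX, PMAIP1 and BBC3, 3 rose (27.3%), 1 fell (9.09%) and 7 did not pass between the states. Over all genes 28.6% were higher and 22.1% lower, so the list passed no more often than other genes. The median was 0.11 beside 0.05 over all genes. MCL1, the survival factor that PMAIP1 binds, averaged 117 ± 7.82 TPM in naive-like and 89.3 ± 9.62 TPM in primed libraries (SD, n = 4 each; log2 change 0.39 ± 0.0824 (SE), adjusted p = 0.00365). The pore-forming relatives of BAX, BAK1 (log2 change 0.23 ± 0.0734 (SE), adjusted p = 0.0269) and BOK (log2 change 0.28 ± 0.10 (SE), adjusted p = 0.0420), rose, and the survival factor BCL2L2 fell (log2 change −0.49 ± 0.108 (SE), adjusted p = 0.00439). On MEFs against feeder-free cells the BH3-only genes BMF (27.5 and 27.4 TPM on MEFs against 14.0 and 13.6 TPM without feeders, adjusted p = 0.0011) and HRK (adjusted p = 0.0390) rose and the survival gene BCL2 fell (adjusted p = 0.0239), all named after their values were seen.

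The genes whose pattern over the 8 libraries lay nearest to a target were found by the root mean square distance of log2(TPM + 1) after centring each gene. For MDM2 they were POLR1B, a subunit of RNA polymerase I (0.0385), ZDHHC16 (0.0396) and MTFMT (0.0400). For CDKN1A they were the WNT receptor gene FZD10 (0.153), the RNA helicase gene DDX55 (0.162) and PERP (0.168), itself among the other p53 targets. For PMAIP1 they were MICAL2 (0.174), CRB3 (0.197) and GSTK1 (0.206). Whether nearness in pattern reflects shared control was not tested.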

How the data were processed

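Transcript levels in TPM were deposited by the authors for 28475 genes in 8 libraries and, per the submitters' processing notes, came from Salmon. Its version, the annotation, the genome build and the strand setting are not given in the sources used here. TPM holds no read counts, so the depth behind a value is unknown. Symbols of 28429 genes, all 9 targets among them, matched a RefSeq annotation of the sheep genome. From these values log2(TPM + 1) was computed, genes that reached 1 TPM in 2 or more libraries were kept (14779), and limma 3.58.1 in R 4.3.3 was fitted across all of them with a variance trend and Benjamini-Hochberg adjustment (two-sided, threshold 0.05). State was tested with 4 libraries against 4, while a fit of 4 groups of 2 gave the other comparisons as contrasts. By rule, named genes are the 9 targets, up to 4 genes of each other list with the smallest adjusted p between the states, and 3 genes nearest in pattern to each of MDM2, CDKN1A and PMAIP1. Genes outside the rule were chosen after their values were seen, as the text says beside them, and some that it would name are not reported here. Members and lists were chosen with earlier results of these data known. The procedure was tested on simulated data with spread within groups only. It held no differences between the groups of a state, so it could not check how the state fit handles them. Alternatives covered the pseudocount, filter, scaling, variance trend, threshold, samples fitted, replicate block and each library left out.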

Additional observations from a re-analysis of the deposited data

Results flagged for a closer look

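MDM2 in feeder-free naive-like replicate 1 (31.3 TPM) stood apart from the other 3 naive-like libraries (27.6 to 27.8 TPM), with a gap of 0.947 of the range of the group, above Dixon's critical value for 4 samples. It was 1 of 18 groups tested, the 9 targets in each state, and chance sets apart about 1 in 20.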

How the results depend on the processing

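Between the states, 8 targets passed under every alternative except the fit of 4 groups (9, with CDKN1A) and a change of at least 2-fold (3 targets, 1595 genes), and means of the subgroups called 4023 genes in place of 7493. The main state fit treats the 2 groups of 2 in each state as 4 separate libraries. With 1 mean per group in limma, adjusted p was larger, at 0.0158 for TP53I3, 0.0229 for BAX and 0.0253 for PHLDA3. A change of at least 2-fold also left 1782 genes and 4 targets for feeder-free and 1636 genes and 2 targets for MEF cultures against primed cells, 153 genes and 0 targets between feeder conditions and 254 genes between lines. Between feeder conditions, 762 genes and 4 targets passed. These became 497 and 3 without a filter (TP53I3 lost) and 253 and 2 at an adjusted p under 0.01. With the groups compared alone they were 235 and 2. A pseudocount of 5 or a mean of at least 5 TPM gave 5 targets, and median-ratio scaling 6. Between lines, 1087 genes passed, against 364 at an adjusted p under 0.01 and 420 with the groups compared alone. Leaving out single libraries gave 6708 to 7087 genes and 8 to 8 targets between states, 7004 to 7876 and 8 to 9 for feeder-free and 5336 to 7949 and 8 to 8 for MEF cultures against primed cells, 160 to 644 and 1 to 5 between feeder conditions, and 363 to 1223 and 0 to 0 between lines (363 without line A replicate 1, 463 without 2, 424 without line B replicate 1, 412 without 2). With the replicate number as a block (replicate block), 7237 genes passed between states, 8407 and 7804 for feeder-free and MEF cultures against primed cells, 697 between feeder conditions and 1050 between lines, with 8, 9, 8, 4 and 1 targets. Deviations of same-numbered libraries correlated weakly across genes (r −0.0748 to 0.0973). With 2 libraries a group, this cannot show whether they share more than a number. Signs turned, in log2 change, for MDM2 between feeder conditions without feeder-free replicate 1 (0.00855, and −0.166 without 2). Between lines they turned after median-ratio scaling for TP53I3 (−0.0176) and AEN (−0.0304), after quantile normalization for AEN (−0.0370), without line A replicate 1 for BBC3 (0.0228) and TP53I3 (−0.0244), without line A replicate 2 for AEN (−0.00373), without line B replicate 1 for AEN (−0.00999) and without line B replicate 2 for BBC3 (0.0996). With single libraries left out, the opposite ends of these ranges were −0.192 for BBC3, 0.103 for TP53I3 and 0.0775 for AEN. None of these had passed; apart from the construction of each setting, the cause was not tested. The depth of the libraries is unknown, so no counting interval can be given for BBC3 and other low genes.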
